A study of Mus musculus with 3 samples.

Results

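The genes described here encode the Nrf2 pathway and the enzymes that remove peroxides and superoxide, 39 genes in all, chosen by symbol, and each of the 39 was found among the 23282 entries of the deposited tables. Their levels were measured in bone marrow of wild type male C57BL/6 mice, an inbred laboratory strain, 6 weeks old, that had been given sterile water by oral gavage for 28 days and were killed for marrow on day 29. Erythrocytes were removed by lysis before the RNA was taken, and the libraries were primed at the polyadenylated end of transcripts (QuantSeq). The series sets this vehicle against Asari Radix et Rhizoma, a herbal drug made from wild ginger. Only the 3 vehicle libraries were used, as 1 group, and samples given the herb were not analysed here.

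Nrf2, encoded by Nfe2l2, is a transcription factor that binds the antioxidant response element together with a small Maf protein. In unstressed cells the adaptor Keap1 holds Nrf2 for degradation, and the repressor Bach1, which is released from DNA by haem, competes for the same elements. The target genes make glutathione, recharge thioredoxin and degrade haem. Peroxiredoxins, glutathione peroxidases and catalase then remove the hydrogen peroxide that superoxide dismutases form, a task that weighs heavily on haemoglobin-filled erythroid cells and on neutrophils, which make superoxide to kill microbes.

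Gene levels are reads per 1000000 gene-assigned reads (CPM). Since each transcript gives about 1 fragment in this kind of library, levels of different genes were compared without a length correction. The libraries held 9168435, 8104828 and 9137125 reads in vehicle replicates 1, 2 and 3. A count of 0 in them was taken to allow up to 3 reads, or 0.327, 0.370 and 0.328 CPM. For 0 reads the exact 95% Clopper-Pearson upper bounds were 0.402, 0.455 and 0.404 CPM. Exact 95% Clopper-Pearson intervals of the tested redox genes reached a median of 9.18% of the value to either side, and they cover counting error only. Whether each library is a different mouse is not stated, so the spread between them may be technical. In bulk RNA, fewer cells of a type and less RNA per cell cannot be told apart. A gene was called different between libraries when an exact two-sided binomial test of 1 library against the others passed an adjusted p of 0.05 (Benjamini-Hochberg over all genes with at least 30 reads). That test sets the libraries against counting noise and not conditions against each other. Over all tested genes, the median log2 ratio of replicate 1 to the remaining libraries was 0.12 on library totals and -0.01 with trimmed-mean (TMM) scaling, so directions below are given on both scales where they differ.

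The antioxidant response element was searched for in the 300 bases around each transcription start (250 before and 50 after, RefSeq, GRCm38.p6) as the core TGACNNNGC, or GCNNNGTCA on the opposite strand. The sequence table held such windows for 33 of the 39 genes, and 9 of them (27.3%) had a match in at least 1 window, against 16.7% of the 11882 genes with reads that had a window. Hmox1, Gclc, Gsr, Prdx6, Sod3 and Ahr had no window and were not searched. By window, 9 of 46 (19.6%) matched, against 12.4% of 32851. The 9 genes were Nfe2l2, Mafg, Mafk, Gclm, Txnrd1, Srxn1, Prdx1, Sod1 and Arnt. The matches outside every annotated exon are shown because the factor that names this gene group reads this core. Each stretch is printed on the strand of its gene, which is the plus strand in all of them, with the core in capitals. A core printed as GCNNNGTCA is a match on the opposite strand.
Gclm, chr3:122245398-122245456, core beginning 134 bases before the start: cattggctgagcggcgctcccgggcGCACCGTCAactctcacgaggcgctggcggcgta
Prdx1, chr4:116685441-116685499, core 133 bases before the start: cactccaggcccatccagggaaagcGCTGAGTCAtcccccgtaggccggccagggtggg
Txnrd1, chr10:82859089-82859147, core 92 bases before the start: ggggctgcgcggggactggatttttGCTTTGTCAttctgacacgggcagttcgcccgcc
Sod1, chr16:90220681-90220739, core 56 bases before the start: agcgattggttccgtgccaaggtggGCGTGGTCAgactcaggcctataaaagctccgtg
Arnt, chr3:95434238-95434296, core 127 bases before the start: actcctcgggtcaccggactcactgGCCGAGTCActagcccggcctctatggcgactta
Arnt, chr3:95434315-95434373, core 50 bases before the start: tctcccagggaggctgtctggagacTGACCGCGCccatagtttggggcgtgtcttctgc
A match is a description of the letters in these windows, and the marrow data hold no measurement of binding.

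Another feature shared by part of the genes is selenocysteine, the selenium amino acid that does the chemistry in several peroxidases and reductases and is read from a TGA codon that elsewhere ends translation. The GENCODE annotation of GRCm38 marks such a codon in 5 of the 39 genes. The coding sequence around it is shown with the codon in capitals, and each stretch lies on the plus strand of the genome. Codon numbers count along the longest coding sequence among the gene's transcripts annotated with this codon. They can differ in other transcripts.
Gpx1, chromosome 9, codon 47 at chr9:108339451-108339453: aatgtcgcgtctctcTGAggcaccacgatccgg
Gpx3, chromosome 11, codon 73 at chr11:54907256-54907258: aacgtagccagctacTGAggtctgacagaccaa
Gpx4, chromosome 10, codon 129 at chr10:80054737-80054739: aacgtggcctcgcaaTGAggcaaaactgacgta
Txnrd1, chromosome 10, codon 612 at chr10:82896037-82896039: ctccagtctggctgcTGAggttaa
Txnrd2, chromosome 16, codon 526 at chr16:18477772-18477774: actgtgactggttgcTGAggctaa
In Gpx1, Gpx3 and Gpx4 the codon stood inside the reading frame with 154, 153 and 124 codons after it. In Txnrd1 and Txnrd2 it was the last but 1 before the stop codon. The levels of these 5 genes ran from Gpx1 at 1177 ± 128 CPM (SD, n = 3) to Txnrd2 at 14.0 ± 3.85 CPM.

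The redox genes were led by Gpx1, which alone held 28.8% ± 1.33 of their summed reads (SD, n = 3). It ranked 30 among all entries by mean level. Sod1 at 348 ± 12.8 CPM, Prdx2 at 286 ± 33.7 CPM and Txn1 at 207 ± 32.6 CPM followed. Of the 39 genes, 12 had a mean of at least 100 CPM, 19 lay from 10 to 100 CPM, 7 had reads but stayed under 10 CPM, and Sod3 had no reads. The classic inducible Nrf2 targets Nqo1, Srxn1 and Slc7a11 were among the 7, at 2.47 ± 0.668, 5.68 ± 1.01 and 8.96 ± 3.87 CPM. The other targets Gclm, Gclc, Txnrd1 and Hmox1 lay from 29.7 to 111 CPM. The summed level of all 39 genes was 4376, 3927 and 3949 CPM in replicates 1, 2 and 3. With TMM scaling it was 4106, 4012 and 4145 CPM, so the first place of replicate 1 did not hold.

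**Figure D1:**
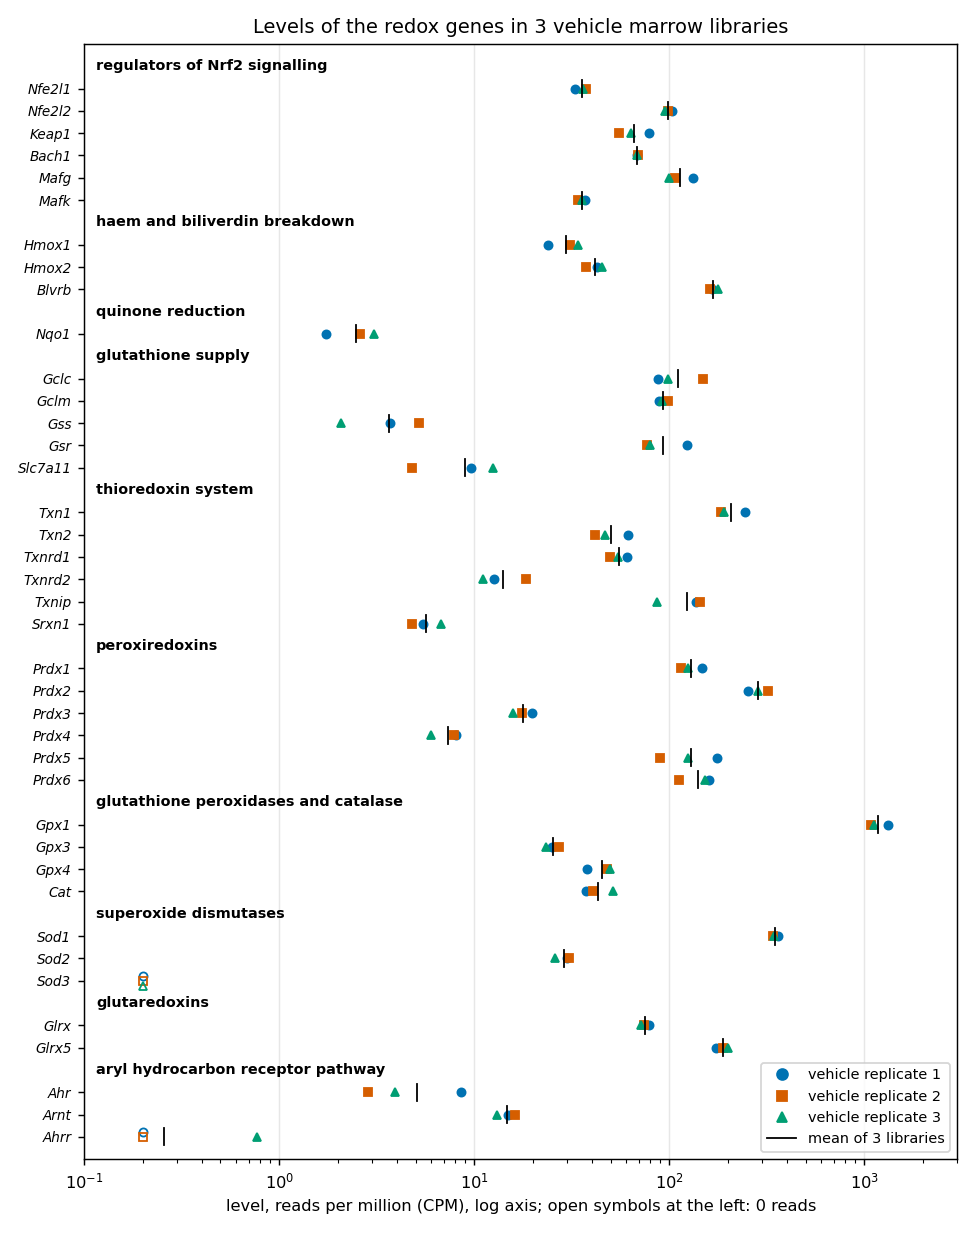
Level of each of the 39 redox genes in vehicle replicates 1, 2 and 3 (symbols) with the mean (black bar), in CPM on a log axis, ordered by role; open symbols at the left edge stand for 0 reads. Gpx1 lies near 1177 CPM, Nqo1 near 2.47 CPM, and Sod3 has open symbols only.

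Of the 39 genes, 37 had at least 30 reads and were tested. The exact binomial test called 22 of these (59.5%) different between libraries, beside 56.5% of all 11833 genes tested, so the share of redox genes called was close to the background. With TMM scaling 24 were called (64.9%, against 51.8% of all genes), and 20 genes were called on both scales. Without replicate 1 the number fell to 11 of 37 (29.7%, against 33.4% of all genes), without replicate 2 to 16 (43.2%, against 38%) and without replicate 3 to 18 (48.6%, against 37.4%). With the authors' own scaling 24 were called (64.9%, against 51.9% of all genes), with totals that leave out the 20 most abundant genes 23 (62.2%, against 52.2%), and with a minimum of 10 reads 22 (59.5%, against 54%). Median-of-ratios scaling called 24 (64.9%, against 51.8%), and a minimum of 1 read called 23 of 38 (60.5%, against 45.8%). Gclc, Prdx2 and Prdx5 were called in the main analysis and under all 9 alternatives. The median coefficient of variation (CV) of the 37 genes was 13.6%, and that of all genes tested was 17.1%. After the part expected from counting was subtracted, the medians were 11.6% and 14.2%. Among genes with a mean of at least 20 CPM, where counting noise is small, the medians beyond counting were 11.2% for 28 redox genes and 11.2% for 5407 genes in all. At that level 18 of the 28 redox genes were called on library totals (64.3%), against 70.6% of the 5407. The shares in the other settings were not compared at matched levels.

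**Figure D2:**
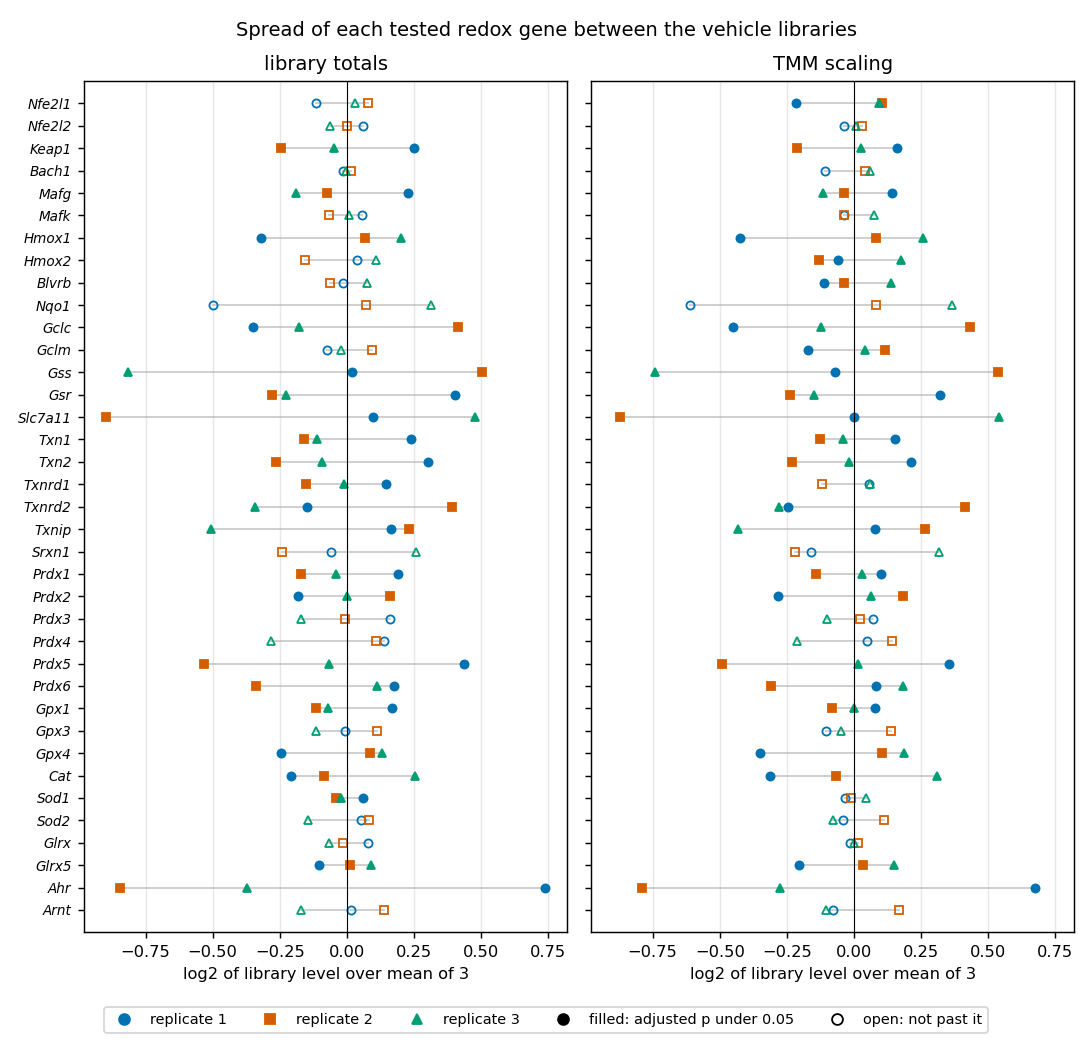
Level of each tested redox gene in each vehicle library as log2 over its mean of 3 libraries, on library totals (left) and with TMM scaling (right); filled symbols mark genes with an adjusted p under 0.05. Slc7a11 and Prdx5 are lowest in replicate 2 and Hmox1, Gpx4 and Cat are lowest in replicate 1 in both panels.

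By direction, 12 of the 37 genes (32.4%) were called and lowest in replicate 2, where 21.4% of all genes tested were. With TMM scaling these numbers were 11 (29.7%) and 17.8%. Called genes that were highest in replicate 1 numbered 12 (32.4%, against 31.2% of all genes), and 9 (24.3%, against 16.1%) with TMM scaling. Those lowest in replicate 1 numbered 6 (16.2%, against 8.82%), and 9 (24.3%, against 17.7%) with TMM scaling. Those lowest in replicate 3 numbered 4 on both scales (10.8%, against 26.2% of all genes on totals and 16.3% with TMM scaling). Genes called and highest in replicate 2 numbered 5 (13.5%, against 14.8%), and 7 (18.9%, against 17.9%) with TMM scaling. Genes highest in replicate 3 numbered 5 (13.5%, against 10.5%), and 8 (21.6%, against 17.8%) with TMM scaling. The redox genes thus had no single order over the libraries, and each role is given on its own. Another measured gene overlaps 10 of the 39, at the polyadenylated end in 7, and without the strand setting of the counting such reads cannot be told apart.

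**Figure D3:**
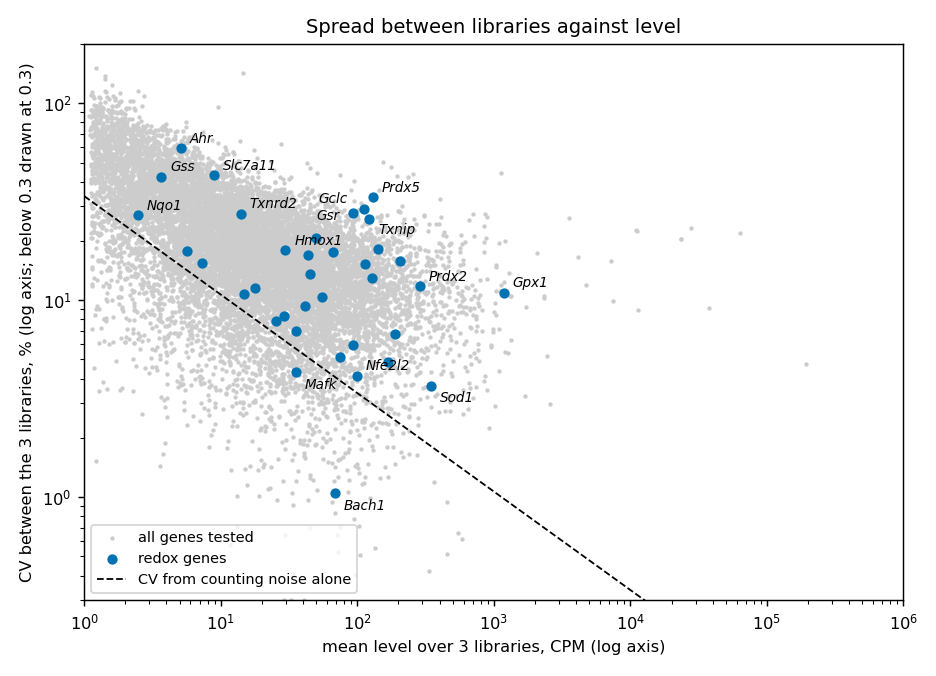
CV between the 3 vehicle libraries, on library totals, against mean level for all 11833 tested genes (grey) and the 37 tested redox genes (blue). Both axes are logarithmic, and the dashed line is the CV that counting noise alone would give. Prdx5, Gclc and Gsr lie in the upper part of the cloud near 100 CPM, and Bach1 and Mafk lie below the line.

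The regulators of the pathway were expressed at moderate levels, and Nfe2l2 and Bach1 varied little on library totals. Nfe2l2 (chromosome 2, 75675513 to 75704641, minus strand) had 103, 98.8 and 94.7 CPM in replicates 1, 2 and 3, a 1.09-fold range that did not pass the test (exact binomial adjusted p = 0.454 on totals, 1 on TMM). The haem-sensing repressor Bach1 had 68.1, 69.5 and 68.5 CPM, and its CV of 1.04% on library totals was below the 4.07% expected from counting. With TMM scaling its CV was 6.38%, and it was called on neither scale (exact binomial adjusted p = 1 on totals, 0.116 on TMM). Reads of Nfe2l2 exceeded those of Bach1 in each library, by a ratio of 1.51, 1.42 and 1.38, which does not depend on the scaling.

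Keap1, the adaptor that marks Nrf2 for degradation, had 78.3, 55.5 and 63.7 CPM (exact binomial adjusted p = 9.73e-07). Replicate 1 was high and replicate 2 low, on both scales. The ratio of Nfe2l2 to Keap1 reads was accordingly lowest in replicate 1, at 1.31, and highest in replicate 2, at 1.78. Mafg, a small Maf partner of Nrf2, had 132, 107 and 99.0 CPM (exact binomial adjusted p = 1.02e-09), with replicate 1 above the others on both scales. Its paralog Mafk had 37.0, 33.9 and 35.7 CPM and no detectable spread beyond counting (exact binomial adjusted p = 1). Nfe2l1, a related factor that drives proteasome genes, had 32.7, 37.5 and 36.2 CPM (exact binomial adjusted p = 0.355 on totals, 0.0135 on TMM). Without replicate 1 neither Keap1 nor Mafg passed (exact binomial adjusted p = 0.0777 and 0.188). Mafg overlaps Sirt7, on the same strand, at its polyadenylated end by 124 bases, and Sirt7 had 71.3 CPM on average.

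Haem and biliverdin enzymes were dominated by Blvrb, the cytosolic biliverdin and flavin reductase that red cells hold in quantity. It had 166, 161 and 177 CPM (exact binomial adjusted p = 0.0673 on totals, 3.08e-05 on TMM), a 1.10-fold range, with replicate 2 lowest on library totals and replicate 1 lowest with TMM scaling. Hmox1 (chromosome 8, 75093621 to 75100589, plus strand), the inducible haem oxygenase that opens the haem ring, had 23.8, 31.1 and 34.1 CPM. Replicate 1 was lowest on both scales (exact binomial adjusted p = 5.30e-04), and without it Hmox1 no longer passed (0.425). The constitutive Hmox2 had 42.8, 37.4 and 45.0 CPM (exact binomial adjusted p = 0.0841 on totals, 0.0219 on TMM). Hmox2 exceeded Hmox1 in every library, by 1.80, 1.20 and 1.32 times in reads. Hmox2 shares its polyadenylated end with Cdip1 on the opposite strand, at 60.0 CPM, so some of its reads could belong to that gene. Without replicate 1 Blvrb and Hmox2 were called (exact binomial adjusted p = 0.0346 and 0.0454).

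Nqo1, the quinone reductase often used as a readout of Nrf2 activity, was near the low end with 16, 21 and 28 reads. These correspond to 1.75, 2.59 and 3.06 CPM, with exact 95% Clopper-Pearson intervals of 0.997 to 2.83, 1.60 to 3.96 and 2.04 to 4.43 CPM. The intervals overlap, and the spread did not pass (exact binomial adjusted p = 0.352 on totals, 0.180 on TMM).

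Of the 5 genes of glutathione supply, 4 were called, beside 56.5% of all genes, and 2 without replicate 2, beside 38%. They had different orders over the libraries. Gclc (chromosome 9, 77754535 to 77794485, plus strand), the catalytic subunit of the rate-limiting enzyme of glutathione synthesis, had 87.5, 148 and 98.3 CPM in replicates 1, 2 and 3. Replicate 2 stood 1.70-fold above replicate 1 (exact binomial adjusted p = 8.69e-32), and the call held without each library in turn (0.0466 without replicate 2). The promoter of its modifier subunit Gclm (chromosome 3, 122245557 to 122270732) holds the core shown above, and that of Gclc was not searched. Gclm had only 88.1, 98.8 and 91.3 CPM (exact binomial adjusted p = 0.117 on totals, 7.00e-04 on TMM). The ratio of Gclc to Gclm reads was therefore 0.993, 1.50 and 1.08. Gss, which adds glycine in the last step of synthesis, was rare at 34, 42 and 19 reads, or 3.71, 5.18 and 2.08 CPM (exact binomial adjusted p = 0.0154). Gss shares its end with Acss2 on the opposite strand, at 5.84 CPM.

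Gsr, the reductase that recycles oxidised glutathione with NADPH, moved the other way from Gclc. It had 123, 76.5 and 79.2 CPM (exact binomial adjusted p = 3.14e-26), with replicate 1 high on both scales. The ratio of Gsr to Gclc reads was 1.40, 0.516 and 0.806, a 2.72-fold range between libraries. Slc7a11, the cystine importer that feeds glutathione synthesis, had 9.60, 4.81 and 12.5 CPM from 88, 39 and 114 reads (exact binomial adjusted p = 7.14e-06), with replicate 2 lowest on both scales. Without replicate 1 Gsr did not pass (exact binomial adjusted p = 0.675), and without replicate 2 Slc7a11 and Gss did not (0.136 and 0.114). Gss also failed without replicate 3 (exact binomial adjusted p = 0.283).

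In the thioredoxin system the cytosolic thioredoxin and the cytosolic reductase each exceeded the mitochondrial counterpart. Txn1 (chromosome 4, 57943373 to 57956411, minus strand), the small protein that reduces peroxiredoxins, had 244, 185 and 191 CPM (exact binomial adjusted p = 7.76e-19). The mitochondrial Txn2 had 61.7, 41.7 and 47.0 CPM (exact binomial adjusted p = 1.34e-07). Both were highest in replicate 1 and lowest in replicate 2 on both scales, and their ratio stayed at 3.96, 4.44 and 4.08. The reductases did not keep such a ratio. Txnrd1, the cytosolic selenoenzyme that recharges Txn1, had 60.9, 49.5 and 54.5 CPM, and its mitochondrial counterpart Txnrd2 had 12.7, 18.4 and 11.1 CPM. Txnrd1 was lowest in replicate 2 (exact binomial adjusted p = 0.0270 on totals, 0.169 on TMM) and Txnrd2 highest there (5.75e-04), so their ratio was 4.81, 2.69 and 4.93.

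Txnip, which binds and inhibits thioredoxin and is induced by glucose, had 138, 144 and 86.5 CPM, with replicate 3 well below the others (exact binomial adjusted p = 2.02e-32). Without replicate 3 it was not called (0.408). Gm15441, on the opposite strand, spans Txnip but had 0.852 CPM on average. Txn1 reads exceeded those of its inhibitor in each library, by 1.78, 1.29 and 2.21 times. Srxn1, the sulfiredoxin that repairs overoxidised peroxiredoxins, had 50, 39 and 62 reads, or 5.45, 4.81 and 6.79 CPM (exact binomial adjusted p = 0.394). Without replicate 1 the calls of Txn1, Txn2 and Txnrd1 were lost (exact binomial adjusted p = 0.499, 0.207 and 0.274), and without replicate 2 those of Txnrd1 and Txnrd2 (0.148 and 0.478). How reads that match several places were counted is not given in the sources used here, and the annotation names pseudogene copies of thioredoxin, Prdx6 and Gpx4.

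Among peroxiredoxins, which reduce hydrogen peroxide through a reactive cysteine, Prdx2 was the most abundant and went against Prdx1, Prdx5 and Prdx6. Prdx2 (chromosome 8, 84969587 to 84974834, plus strand), the main peroxiredoxin of red cells, had 252, 319 and 286 CPM (exact binomial adjusted p = 1.74e-11), with replicate 1 lowest and replicate 2 highest on both scales. The last 351 bases of Prdx2 overlap the end of Junb, an AP-1 gene on the opposite strand with 502, 503 and 449 CPM. The ratio of Prdx2 to Junb reads was 0.502, 0.636 and 0.637.

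Prdx1 had 147, 114 and 125 CPM (exact binomial adjusted p = 2.84e-07), lowest in replicate 2. Prdx2 thus exceeded Prdx1 by 1.71, 2.79 and 2.28 times in reads. Prdx5, found in mitochondria, peroxisomes and cytosol, had 176, 89.8 and 124 CPM. Replicate 1 stood 1.95-fold above replicate 2 (exact binomial adjusted p = 8.95e-43), and the call held when any 1 library was left out. Prdx6, which works with glutathione and also acts as a phospholipase, had 159, 112 and 152 CPM (exact binomial adjusted p = 2.71e-17), with replicate 2 low on both scales. The mitochondrial Prdx3 had 19.9, 17.6 and 15.8 CPM and the secretory-pathway Prdx4 had 8.07, 7.90 and 6.02 CPM, and neither passed (exact binomial adjusted p = 0.265 and 0.320). Without replicate 1 Prdx1 did not pass (exact binomial adjusted p = 0.101), and without replicate 2 Prdx6 did not (0.382).

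Gpx1, the cytosolic glutathione peroxidase, exceeded every other peroxide-removing gene of the group in each library. Gpx1 (chromosome 9, 108338903 to 108340343, plus strand) had 1324, 1088 and 1120 CPM, from 12142, 8815 and 10236 reads (exact binomial adjusted p = 2.06e-51). Replicate 1 was highest and replicate 2 lowest on both scales. At this depth a small range is called: the highest library was 1.22-fold above the lowest, and without replicate 1 the call was lost (exact binomial adjusted p = 0.103). Gpx4, which reduces lipid peroxides in membranes and guards against ferroptosis, had 38.1, 47.9 and 49.4 CPM (exact binomial adjusted p = 9.43e-04). It was lowest in replicate 1 on both scales, opposite to Gpx1, and was not called without that library (0.796). The ratio of Gpx1 to Gpx4 reads was 34.8, 22.7 and 22.7.

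Cat (chromosome 2, 103453849 to 103485160, minus strand), the haem enzyme catalase, had 37.4, 40.7 and 51.4 CPM (exact binomial adjusted p = 6.86e-05). Replicate 3 was highest on both scales, and without it Cat was not called (0.416). Gpx1 exceeded Cat by 35.4, 26.7 and 21.8 times in reads. Gpx3, the peroxidase secreted into plasma, had 25.1, 27.3 and 23.3 CPM and did not pass (exact binomial adjusted p = 0.549 on totals, 0.285 on TMM).

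Superoxide dismutases turn superoxide into hydrogen peroxide. Sod1 (chromosome 16, 90220754 to 90226329, plus strand), the copper and zinc enzyme of the cytosol, had 363, 339 and 343 CPM, a 1.07-fold range. Its call (exact binomial adjusted p = 0.0262) was lost with TMM scaling (0.138), without replicate 1 (0.780) and without replicate 2 (0.0609), and with TMM scaling replicate 1 turned from the highest to the lowest library. Its last 650 bases overlap Scaf4 on the opposite strand, which had 55.5 CPM on average. The mitochondrial manganese enzyme Sod2 had 29.9, 30.5 and 26.0 CPM (exact binomial adjusted p = 0.252). Sod1 reads were 12.1, 11.1 and 13.2 times those of Sod2. Sod3, the extracellular enzyme, had 0 reads in all 3 libraries. By the same limit of 3 reads this allows up to 0.114 CPM over their summed reads.

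Glrx5, a mitochondrial glutaredoxin needed for iron-sulfur clusters and thereby for haem synthesis, exceeded the cytosolic Glrx. Glrx5 had 174, 189 and 199 CPM (exact binomial adjusted p = 0.00272), lowest in replicate 1 on both scales. Glrx, which removes glutathione from protein thiols, had 79.1, 74.3 and 71.5 CPM (exact binomial adjusted p = 0.304 on totals, 1 on TMM). Reads of Glrx5 were 2.20, 2.54 and 2.79 times those of Glrx. Without replicate 1 or replicate 3 the call of Glrx5 was lost (exact binomial adjusted p = 0.235 and 0.0640).

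The aryl hydrocarbon receptor pathway, which senses planar aromatic ligands and shares Nqo1 as a target with Nrf2, was low in these libraries. Ahr, the receptor, had 78, 23 and 36 reads, or 8.51, 2.84 and 3.94 CPM, the widest range of any tested redox gene at 2.998-fold (exact binomial adjusted p = 2.56e-06). The exact 95% interval of replicate 1, 6.72 to 10.6 CPM, does not overlap those of replicate 2, 1.80 to 4.26 CPM, or replicate 3, 2.76 to 5.45 CPM. Without replicate 1 Ahr was not called (exact binomial adjusted p = 0.390). Its dimer partner Arnt had 14.83, 16.16 and 13.02 CPM (exact binomial adjusted p = 0.449), so Arnt reads exceeded Ahr reads by 1.74, 5.70 and 3.31 times. The repressor and target gene Ahrr had 0, 0 and 7 reads and was too low for the test.

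**Figure D4:**
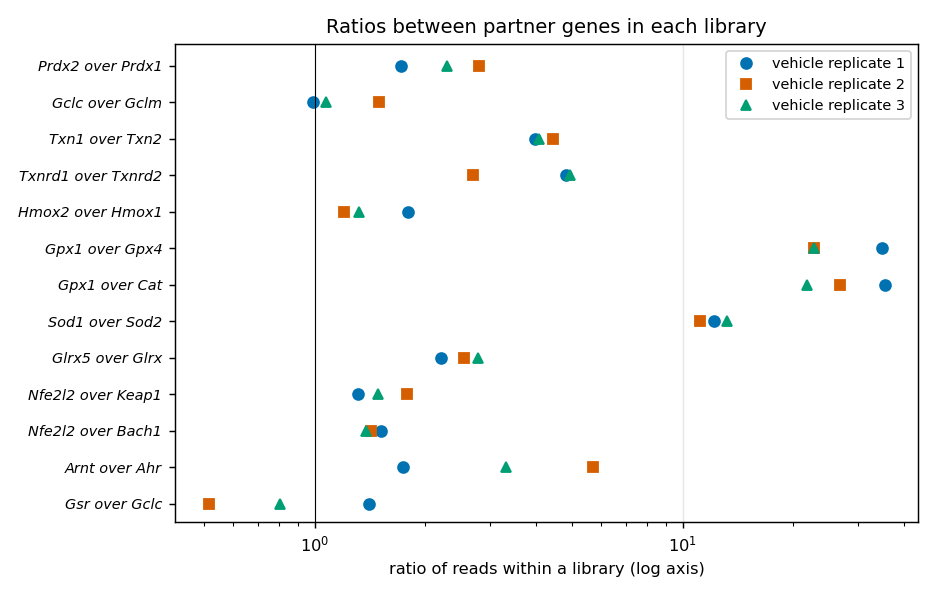
Ratio of reads between partner genes within each vehicle library, on a log axis; the library size cancels, so no scaling enters. Txn1 over Txn2 and Nfe2l2 over Bach1 keep together, while Gsr over Gclc spreads from 0.516 to 1.40 and Arnt over Ahr from 1.74 to 5.70.

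Markers of marrow cell types also differed between the libraries. The label of bone marrow was checked against them: 10 of 10 erythroid and 10 of 10 neutrophil markers had reads, whereas the 4 liver markers Alb, Apoa1, Ttr and Serpina1a were at 0 reads and the 6 skeletal muscle markers summed to 12.1 to 14.7 CPM, with Myh4 at 0. Erythroid markers summed to 67338, 99780 and 100717 CPM in replicates 1, 2 and 3, with 9 of 10 called, beside 56.5% of all genes. Nearly all of that sum came from the globins Hba-a1, at 47618, 71024 and 72724 CPM, and Hbb-bs, at 18007, 26612 and 26087 CPM. Of the 10 erythroid markers, 7 were lowest in replicate 1 on library totals, and the other 3, Tfrc, Ermap and Car2, were lowest in replicate 3. With TMM scaling 8 were lowest in replicate 1, Car2 among them. Prdx2, Hmox1, Gpx4, Cat, Glrx5 and Gclc were lowest in replicate 1 on both scales. Neutrophil markers summed to 89156, 69308 and 91588 CPM with 10 of 10 called, and each of the 10 was lowest in replicate 2 on both scales. Keap1, Gsr, Txn1, Txn2, Prdx1, Prdx5, Prdx6, Gpx1, Slc7a11 and Ahr were also lowest in replicate 2 on both scales. Eosinophil, mast cell and basophil markers summed to 1685, 804 and 2112 CPM with 6 of 6 called, and 5 of the 6 were lowest in replicate 2. Most of that sum was Prg2, an eosinophil granule gene, at 1219, 586 and 1560 CPM. The 3 eosinophil genes Prg2, Epx and Ear6 had the same order over the libraries as Slc7a11. On library totals the neutrophil sum and S100a8, S100a9, Ngp, Elane and Mmp8 had that order too. The other neutrophil markers were highest in replicate 1 on totals. Mcpt8 and Cpa3 were highest in replicate 1 and Ms4a2 was highest in replicate 2. The part of these cell types in the redox differences was not tested.

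The shares of all genes called, for comparison with the following marker lists, were 56.5% on library totals, 51.8% with TMM scaling, 33.4% without replicate 1 and 37.4% without replicate 3. Markers of iron-recycling macrophages, the cells that degrade haem through Hmox1, summed to 519, 499 and 465 CPM. Of the 8, 5 were called (1 without replicate 1). The sum was highest in replicate 1, where Hmox1 was lowest, but the list was split. On library totals 4 of the 8 markers were highest in replicate 1, and 3, C1qa, C1qb and Spic, were lowest there, as Hmox1 was. With TMM scaling the 8 markers summed to 487, 510 and 488 CPM, and 4 of them were lowest in replicate 1. Monocyte and macrophage markers summed to 1245, 1203 and 1394 CPM with 3 of 6 called (5 with TMM scaling). The largest part of that sum was Ly6c2, at 439, 429 and 599 CPM. On library totals 3 of the 6 markers were highest in replicate 1 and 3 in replicate 3. With TMM scaling the sums of the 6 markers were 1168, 1229 and 1463 CPM, so that replicate 1 and not replicate 2 was lowest. On that scale 5 of the 6 were highest in replicate 3. B cell markers summed to 622, 653 and 500 CPM with 6 of 7 called, and T and NK cell markers to 170, 162 and 158 CPM with 4 of 6 called. Most of the T and NK cell sum was Il7r, at 104, 106 and 84.1 CPM. Although this sum was highest in replicate 1 on library totals, 0 of its 6 markers were highest there. On both scales 3 of them, Cd3d, Cd3e and Cd3g, were lowest in replicate 1. With TMM scaling the T and NK cell sums were 159, 165 and 166 CPM, the reverse order. Without replicate 3 the numbers called were 1 for monocytes and macrophages, 2 for B cells, 1 for T and NK cells and 2 for stroma and endothelium. Stroma and endothelium markers summed to 316, 271 and 216 CPM, with 6 of 8 called, and were lowest in replicate 3. Txnip and the B cell sum were lowest there too, and both were highest in replicate 2. On library totals the sums of iron-recycling macrophages and of T and NK cells were also lowest in replicate 3.

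**Figure D5:**
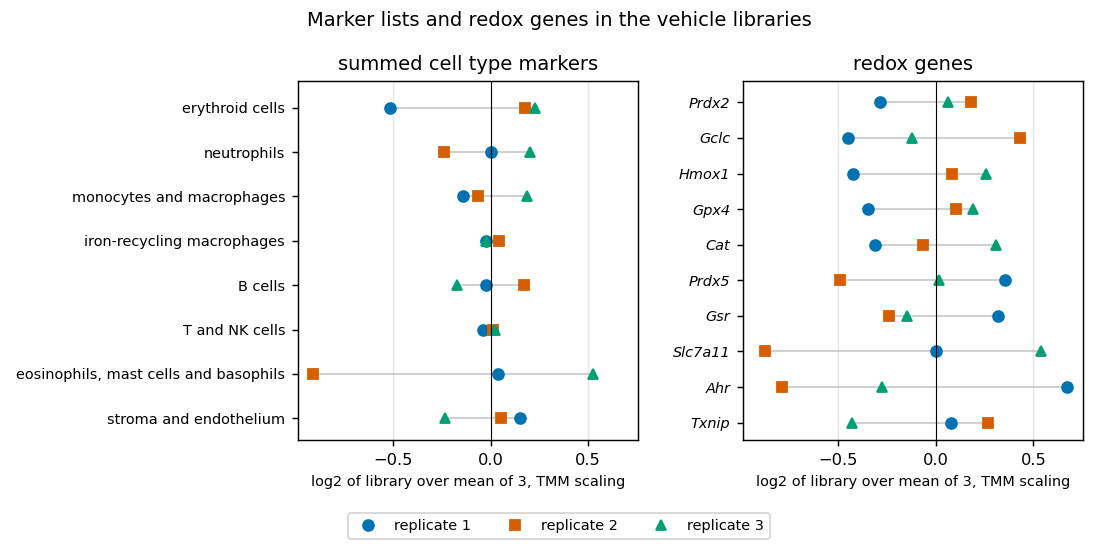
Summed markers of 8 cell type lists (left) and 10 redox genes (right) in each vehicle library, as log2 over the mean of 3 libraries with TMM scaling. Erythroid markers, Prdx2, Gclc, Hmox1, Gpx4 and Cat are lowest in replicate 1, and neutrophil markers, eosinophil, mast cell and basophil markers, Prdx5, Gsr, Slc7a11 and Ahr in replicate 2.

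The wider pathway was followed in 47 further genes, of which 40 could be tested and 26 were called, beside 56.5% of all genes. With TMM scaling 27 were called, beside 51.8%. Of the enzymes that supply NADPH to glutathione and thioredoxin reductases, 5 of 6 tested were called, or 3 without replicate 2, where 38% of all genes were. The most abundant were Taldo1, a transaldolase, at 406, 359 and 409 CPM (exact binomial adjusted p = 1.08e-07), and Tkt, a transketolase, at 328, 320 and 422 CPM (1.21e-33). Of other Nrf2 targets, 9 of 13 were called. The ferritin subunits were highest, with Fth1 at 496, 516 and 638 CPM (exact binomial adjusted p = 6.20e-40) and Ftl1 at 359, 296 and 328 CPM (1.43e-08). On library totals and with TMM scaling, Fth1 was highest in replicate 3.

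Of 8 other regulators tested, 5 were called, or 2 without replicate 1, 3 without replicate 2 and 2 without replicate 3. The shares of all genes in these settings were 56.5%, 33.4%, 38% and 37.4%. The B cell repressor Bach2 had 203, 211 and 137 CPM (exact binomial adjusted p = 4.70e-35), beside B cell markers that were also lowest in replicate 3. Gsk3b, a kinase that marks Nrf2 for Keap1-independent degradation, had 195, 167 and 184 CPM (exact binomial adjusted p = 7.10e-04). Of 13 other thiol and peroxide enzymes tested, 7 were called, again beside 56.5% of all genes. Msrb1, a methionine sulfoxide reductase, had 196, 136 and 168 CPM (exact binomial adjusted p = 1.32e-15). Selenop, the selenium carrier, which the tables list under its older symbol, had 92.4, 109 and 80.9 CPM (1.22e-06).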

How the data were processed

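The authors deposited 1 table per library with gene symbols and log2 values, read from the values as log2(x + 1) with x per 1000000 of a scaled library size. Bowtie2, bedtools and mm10 are named in the submitters' processing notes; versions, annotation, strand setting and normalization were not given in any source used here. Per the labels' protocols, 500 ng of RNA entered each QuantSeq library. Whole reads were recovered from the steps of the values (100% within a relative tolerance of 1e-06). CPM are recovered reads per 1000000 recovered reads. The design assumed counts, so exact binomial tests ran on recovered reads in Python 3.11.15 with scipy 1.17.1, for genes with at least 30 reads, each library against the other 2, the smallest p times 3, with Benjamini-Hochberg adjustment over all 11833 genes. The script was tested on simulated data. A CV beyond counting subtracts the Poisson variance.

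Genes and lists were chosen with earlier results of these data known. All 39 genes are described, with the 2 most abundant of each further list of the pathway. Of 72 cell type markers fixed, 71 were measured, and Trac was not analysed here. Positions are from GENCODE, on GRCm38, the assembly called mm10. Protein sequences were not used here. The alternatives were TMM (30% of ratios and 5% of intensities trimmed), median-of-ratios and the authors' scaling, totals without the 20 most abundant genes, minimums of 10 reads and 1 read, other pseudocounts, and leaving out each library.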

Additional observations from a re-analysis of the deposited data

How the results depend on the processing

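The number of genes called over the whole table (6687) and of redox genes called (22), and the median CV of the redox genes (13.6%), stayed within 1.5 times under the scaling and read-minimum alternatives. Leaving out 1 library gave 3957 to 4501 genes, 11 to 18 redox genes and a median CV of 7.98% to 13.9%. Fewer samples enter those tests, and the cause beyond that was not tested. Under the scaling alternatives Sod1 reversed, with replicate 1 no longer above the mean of the others: its CV was 2.87% with TMM, 2.71% with median-of-ratios, 2.46% with the authors' scaling and 1.62% with totals without the 20 most abundant genes, against 3.68%, and its call was lost in all 4 (adjusted p from 0.138 to 0.767, exact binomial test). Txnrd1 was lost under the same 4. Blvrb, Gclm and Nfe2l1 were gained under these, and Hmox2 under 3 of them. With a minimum of 1 read Ahrr was also called. The SD of log2 values moved by more than itself for 1 gene with a pseudocount of 0.1 and for 0 with 5. Few reads limit the precision of Ahrr, Nqo1, Gss, Ahr and Srxn1. No paired analysis was possible because the libraries form 1 group.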
